A study of Mus musculus with 15 samples.

Results

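A set of 10 cytosolic heat shock chaperone genes, chosen by name, was followed through every library of the series: the HSP70 proteins Hspa8, Hspa1a and Hspa1b, the HSP90 proteins Hsp90aa1 and Hsp90ab1, the HSP110 protein Hsph1, the J-domain proteins Dnaja1 and Dnajb1, the cochaperone Bag3 and the small heat shock protein Hspb1. These 10 genes were found among the 54532 genes of the forebrain table and again among the 32285 genes of the microglia matrices. In forebrain of 5xFAD mice, none of the 10 passed the test between mice with and without Atg7 deletion in microglia. In sorted microglia of mice without 5xFAD, Hsp90ab1, Hsp90aa1, Dnajb1 and Hspa8 were between 1.18-fold and 1.42-fold lower in the deletion library than in the control library, with 1 library per genotype. Over all kept cells Dnaja1 was near equal, and 0 of these 5 genes differed by 1.5-fold or more. The 2 libraries differed in depth per cell. In cells with 1000 to 3000 counted RNA molecules, Hsp90ab1 and Hspa8 were lower by at least 1.5-fold, as were 12.6% of the genes compared there. The other members were at low levels in sorted microglia. Among them Hsph1 was higher and Hspb1 lower in the deletion library, and the direction of Hspa1a turned with the cells used. Across the 13 forebrain libraries the 10 genes went up and down together, and each genotype held libraries in which most of them were low and libraries in which most were high.

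Cytosolic chaperones bind unfolded or partly folded proteins and help them fold, stay soluble or be degraded. HSP70 proteins take up substrates delivered by J-domain proteins, nucleotide exchange factors of the HSP110 and BAG families reset them, and HSP90 proteins act on later folding steps of kinases, receptors and other clients. The constitutive members Hspa8 and Hsp90ab1 are made in nearly all cells, while Hspa1a, Hspa1b and Hspb1 are classic targets of heat shock factor HSF1, which binds repeats of nGAAn in their promoters. Bag3 links HSP70 and small heat shock proteins to selective autophagy, the process in which Atg7, an E1-like enzyme, is needed for autophagosome formation.

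The microglia came from C57BL/6 mice of genotype ATG7FF (control) or ATG7FF;Cx3cr1CreER (called cKO here), both without 5xFAD. The forebrain libraries came from C57BL/6 mice of genotype ATG7FF;5xFAD (control, 6 libraries) or Cx3cr1CreER;ATG7FF;5xFAD (cKO, 7 libraries). 5xFAD mice carry mutant human amyloid precursor protein and presenilin transgenes and form amyloid plaques. All mice, controls included, carried floxed Atg7 and were given tamoxifen (1.5 mg) when 2 months old, and all were 8 months old when sampled. The Cre was driven from Cx3cr1, which is active in microglia and in other Cx3cr1-expressing macrophages, and the controls carried no Cre, so genotype groups also differ in the presence of that allele. Percoll-enriched microglia were sorted by high CD11b and low CD45, and cells of 3 control or of 4 cKO forebrains were pooled into 1 library each. Whether every forebrain library is from its own mouse is not stated in the labels, and p-values therefore refer to the spread among libraries, which may be technical in part.

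Total read counts of the forebrain libraries ran from 16658707 to 22355512. The microglia libraries differed in depth: the 6243 control cells kept had a median of 1392 UMIs (unique molecular identifiers, counts of captured RNA molecules), and the 8874 cKO cells kept had a median of 4531.5 UMIs. The 2 libraries shared 22 barcodes, of which 11 were among kept cells in each. Atg7 itself was counted over the whole gene, and which part Cre removes is not given in the sources used here; its level therefore does not check the deletion: in forebrain it was 24.3 CPM (counts scaled to the library total) in controls and 24.3 CPM in cKO (edgeR adjusted p = 0.991), and in microglia 15.8 and 18.1 CPM. Of 10 microglia markers, 8 fell in cKO forebrain, led by Cx3cr1 (log2 change -1.37, SE 0.070, edgeR adjusted p = 5.0e-11), and all 10 were detected in both sorted libraries. Cx3cr1 was also lower in sorted cKO cells, at 2767 CPM against 5336 CPM. Only cKO mice carried the Cre driven from this gene, so for Cx3cr1 an effect of that allele and one of the deletion cannot be told apart. In bulk tissue, fewer cells of a type and less RNA per cell cannot be told apart. No marker of neurons, astrocytes, oligodendrocytes or endothelial cells passed the forebrain test, in edgeR or in DESeq2.

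The promoters of the strongly inducible members are shown because they carry the elements by which these genes are known. RefSeq promoter windows on GRCm38.p6, from 250 bases before to 50 bases after each transcript start, were matched for 7 of the 10 genes, all but Hspa8, Hsp90aa1 and Hsp90ab1. Capitals mark each match to the inverted pair GAANNTTC or TTCNNGAA, searched on both strands (each pattern is its own reverse complement). The 250 bases before the start are given for Hspa1a (chr17:34972157-34972406, minus strand) and Hspa1b (chr17:34959239-34959488, minus strand), and the 150 bases before the start for Hspb1 (chr5:135887769-135887918, plus strand).
Hspa1a: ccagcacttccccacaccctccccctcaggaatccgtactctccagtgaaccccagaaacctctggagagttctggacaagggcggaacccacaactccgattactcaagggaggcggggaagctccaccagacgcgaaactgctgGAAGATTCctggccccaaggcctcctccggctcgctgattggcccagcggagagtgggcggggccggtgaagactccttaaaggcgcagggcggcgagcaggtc
Hspa1b: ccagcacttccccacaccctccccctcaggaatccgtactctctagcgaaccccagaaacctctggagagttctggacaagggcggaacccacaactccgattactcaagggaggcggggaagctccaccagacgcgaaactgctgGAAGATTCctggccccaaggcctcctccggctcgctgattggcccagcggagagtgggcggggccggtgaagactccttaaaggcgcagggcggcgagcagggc
Hspb1: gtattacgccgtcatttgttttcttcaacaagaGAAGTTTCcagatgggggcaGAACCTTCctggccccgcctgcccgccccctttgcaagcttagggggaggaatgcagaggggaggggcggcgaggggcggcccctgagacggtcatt
The Hspa1a and Hspa1b windows were identical at 247 of 250 bases (98.8%). With positions counted from 1 at the 5′ end and the Hspa1a base first, they differed by C44T, T47C and T249G.

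Of the 7 genes with a window, 6 held the inverted pair in at least 1 window, against 17% of 27025 genes with a RefSeq window. Hspa1a and Hspa1b, both among the 6, have near-identical windows and are not separate cases. Hspa1a and Hspa1b each held GAAGATTC with its first base 104 bases before the start, and Hspb1 held GAAGTTTC at 117 and GAACCTTC at 97 bases before the start. Dnaja1 has 3 windows, of which 1 held GAAAATTC at 124 bases before its start and the others had no match. In Bag3, GAAGTTTC began at base 43 of the transcript. Hsph1 has 2 windows that hold the same elements: TTCTCGAA began 54 or 33 bases before the start, and the triple repeat TTCTGGAAAGTTC at base 16 or 37 of the transcript. Hsph1 was the only member with a triple repeat (GAANNTTCNNGAA or its reverse complement TTCNNGAANNTTC, both of which contain the pair), a pattern found in 0.662% of genes with a window. These matches describe letters in the windows, not binding, and Dnajb1 had no match in its 2 windows. Among related genes with a window, the pair was held by 3 of 4 other small heat shock genes, 3 of 7 other J-domain genes, 3 of 7 TRiC chaperonin genes, 2 of 5 mitochondrial chaperone genes (both with the triple repeat), 4 of 15 cytosolic cochaperone genes, 0 of 7 other HSP70 and HSP110 genes and 0 of 12 ER (endoplasmic reticulum) chaperone genes. The triple repeat was also held by 1 of these J-domain genes (Dnajb6) and 1 of the cochaperone genes (Chordc1). The 2 mitochondrial genes, Hspd1 and Hspe1, lie on opposite strands with overlapping windows, so the same elements are counted for both.

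In forebrain, levels per length (RPKM, reads scaled by exon length and by the TMM-scaled total) spanned a wide range. Hsp90ab1, the constitutive HSP90 (chromosome 17, 45567775 to 45573271), was highest at 549 ± 22.9 RPKM (SD, n = 6) in controls. Hspa8, the constitutive HSP70 (chromosome 9, 40800984 to 40810087), followed at 440 ± 54.5 RPKM, and Hsp90aa1, the inducible HSP90 (chromosome 12, 110690605 to 110702728), at 343 ± 29.6 RPKM. Below these 3 genes came Hsph1 at 47.8 ± 7.93, Dnaja1 at 33.1 ± 2.46 and Dnajb1 at 20.6 ± 3.02 RPKM. The low end held Hspb1 at 9.47 ± 2.91, Bag3 at 4.90 ± 0.561, Hspa1b at 4.46 ± 0.961 and Hspa1a at 2.78 ± 0.442 RPKM. Bag3 and Hspa1b, neighbours in this order, did not differ beyond their SD. The order between Hspa1a and Hspa1b is uncertain, because 58.8% of the 50-base stretches of the longest Hspa1a transcript also occur in that of Hspa1b and the handling of such reads is not given in the sources used here.

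The question put to the forebrain libraries was whether Atg7 deletion in microglia changed chaperone RNA in brain tissue with amyloid. Their values are for whole tissue and do not give the level within microglia. All 10 genes passed the filter on low counts and 0 were called at an adjusted p of 0.05 (edgeR quasi-likelihood test), where 0.33% of the 16956 genes tested were called (0.277% lower and 0.0531% higher in cKO). DESeq2 also called 0 of the 10. With either tool, none of the 10 had an unadjusted p under 0.05, against, in edgeR, 7.71% of all genes tested, and none had all cKO libraries above or below all controls, against 0.13% and 0.313% of genes. The median log2 change of the 10 genes was 0.03, with 6 above and 4 below 0, and the median over all genes tested was 0.0016.

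Among the HSP70 proteins, which bind the unfolded substrates, Hspa8 ran from 1632 through a median of 1904 to 2152 CPM in the 6 controls and from 1632 through 1787 to 2076 CPM in the 7 cKO libraries. The groups covered nearly the same range, and the log2 change was -0.03 (SE 0.075, 95% interval -0.19 to 0.13, edgeR adjusted p = 0.935). Hspa1b, the stress-inducible HSP70 (chromosome 17, 34956436 to 34959238), ran from 8.30 through 13.4 to 15.3 CPM in controls and from 8.86 through 13.1 to 18.5 CPM in cKO. Its 3 highest values were in cKO libraries, its lowest was in a control, the groups overlapped, and the log2 change of 0.11 (SE 0.19, interval -0.30 to 0.51) had an edgeR adjusted p of 0.907. Its neighbour Hspa1a (chromosome 17, 34969190 to 34972156) ran from 6.58 through 8.32 to 9.57 CPM in controls and from 6.29 through 8.13 to 12.9 CPM in cKO. Both the lowest and the highest value were in cKO libraries, with a log2 change of 0.13 (SE 0.15, interval -0.19 to 0.44, edgeR adjusted p = 0.855). Hspa1a overlaps Gm20481 on the opposite strand, and the strand setting of the counting is not given in the sources used here.

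Of the HSP90 proteins, which act late in the folding of their clients, Hsp90ab1 ran from 1567 through 1644 to 1752 CPM in controls and from 1570 through 1705 to 1766 CPM in cKO, a log2 change of 0.02 (SE 0.040, interval -0.07 to 0.10, edgeR adjusted p = 0.931). Of the 10 genes it had the narrowest interval. Hsp90aa1 ran from 1220 through 1319 to 1523 CPM in controls and from 1113 through 1311 to 1412 CPM in cKO. Its log2 change of -0.06 (SE 0.056, interval -0.18 to 0.05) had the lowest adjusted p of the 10 (0.804 in edgeR), and the groups overlapped.

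The helpers of HSP70 did not pass the test either. Hsph1, the HSP110 exchange factor (chromosome 5, 149614287 to 149636376), ran from 279 through 358 to 407 CPM in controls and from 271 through 321 to 394 CPM in cKO (log2 change -0.05, SE 0.12, edgeR adjusted p = 0.935). Dnaja1, a J-domain protein that delivers substrates to HSP70 (chromosome 4, 40722150 to 40737149), ran from 259 through 291 to 311 CPM in controls and from 246 through 287 to 293 CPM in cKO (log2 change -0.03, SE 0.052, edgeR adjusted p = 0.907). Both sets of libraries overlapped over most of their range, and Dnaja1 shares bases with Smu1 and Gm6297 on the opposite strand. Dnajb1, the heat-inducible J-domain protein (chromosome 8, 83608193 to 83612653), ran from 53.4 through 64.5 to 80.6 CPM in controls and from 53.5 through 69.1 to 84.8 CPM in cKO (log2 change 0.05, SE 0.11, edgeR adjusted p = 0.934). Bag3 (chromosome 7, 128523616 to 128546981) ran from 11.0 through 12.6 to 14.9 CPM in controls and from 10.7 through 13.3 to 15.1 CPM in cKO (log2 change 0.07, SE 0.094, interval -0.13 to 0.26, edgeR adjusted p = 0.877). Hspb1, the small heat shock protein HSP27 (chromosome 5, 135887919 to 135889563), ran from 5.79 through 11.3 to 12.4 CPM in controls and from 6.92 through 9.83 to 13.4 CPM in cKO. It had the widest interval of the 10 genes, from -0.41 to 0.52 around a log2 change of 0.06 (SE 0.22, edgeR adjusted p = 0.959). Changes within these intervals remain compatible with the values of the 6 and 7 libraries.

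**Figure D1:**
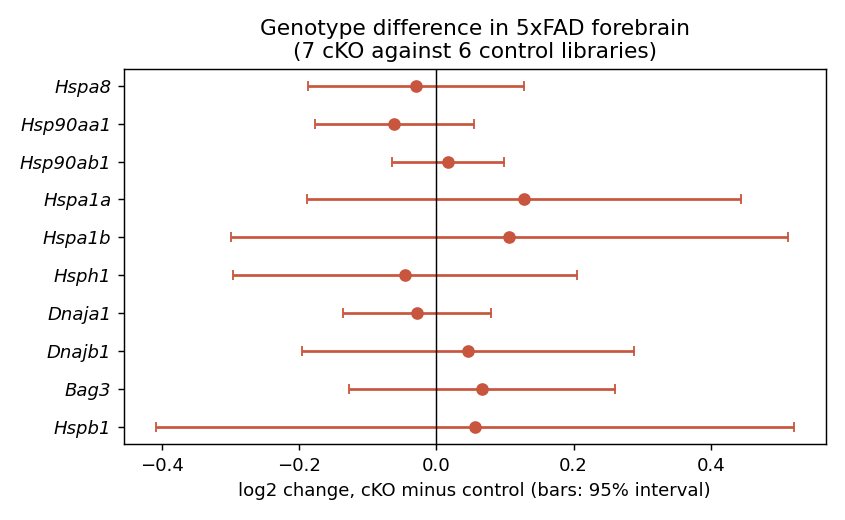
Log2 change of each chaperone gene in 5xFAD forebrain, cKO minus control (x axis), with bars for the 95% interval of the edgeR estimate, from 7 cKO and 6 control libraries. All 10 intervals include 0, from the narrow interval of Hsp90ab1 (-0.07 to 0.10) to the wide one of Hspb1 (-0.41 to 0.52).

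No list of related genes had a call in forebrain. The edgeR test called 0 of 3 heat shock factor genes, 0 of 7 other HSP70 and HSP110 genes, 0 of 8 other J-domain genes, 0 of 18 cytosolic cochaperones and 0 of 8 subunits of the TRiC chaperonin, and 0 of the 4 tested of 6 other small heat shock genes. Hsf1, which encodes the main heat shock factor, stood at 34.0 ± 2.61 CPM (SD, n = 6) in controls and 36.8 ± 2.87 CPM (SD, n = 7) in cKO, a log2 change of 0.11 (SE 0.064, edgeR adjusted p = 0.688). The chaperones of other compartments gave 0 of 6 mitochondrial and 0 of 14 ER genes called, and 0 of 18 tested immediate early genes (rapidly induced transcription factors and their kin) were called. DESeq2 also called 0 genes of these lists. At an unadjusted p under 0.05, each tool had 2 of 18 cochaperones, 2 of 14 ER chaperones and 0 genes of the other lists named here. In edgeR, 7.71% of all genes tested were under this limit, so these counts are not read as a result about the lists.

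Libraries of the same genotype differed from each other. For Hspb1, the most variable of the 10 by its SD, the ratio of the highest to the lowest library was 2.14 in controls and 1.93 in cKO. The same ratio was 1.84 and 2.09 for Hspa1b, 1.45 and 2.05 for Hspa1a, 1.51 and 1.58 for Dnajb1, and 1.46 and 1.45 for Hsph1. At the steady end stood Hsp90ab1, with 1.12 in each genotype. Within groups, the SD of log2 CPM was 0.45 for Hspb1, where genes of like expression had a median SD of 0.18, and 0.23 for Hsph1 against 0.088. By the same measure Hspa1b had 0.39 against 0.16, Dnajb1 0.23 against 0.10 and Hspa8 0.16 against 0.081. Hsp90ab1 was the only member below its comparison median, at 0.063 against 0.081. Hspa8, Hsp90aa1 and Hsp90ab1 had the same comparison median, so for these genes it is not specific to the level of each.

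The same libraries were low or high for most members. Control library 1 held 8 of the 10 genes among its 3 lowest of 13 values, control library 2 held 7 and cKO library 1 held 8. At the other end, cKO library 6 held 9 of the 10 genes among the 3 highest values, and cKO library 7, control library 5 and control library 6 held 5 each. Control library 5 was nonetheless low for Hspa1a, at 6.58 CPM. How many of all genes ranked lowest or highest in these libraries was not counted, so the counts describe the members without a background. Summed over the 10 genes, levels ran from 5048 to 6170 CPM in controls and from 5085 to 6030 CPM in cKO, so each genotype held both low and high libraries.

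**Figure D2:**
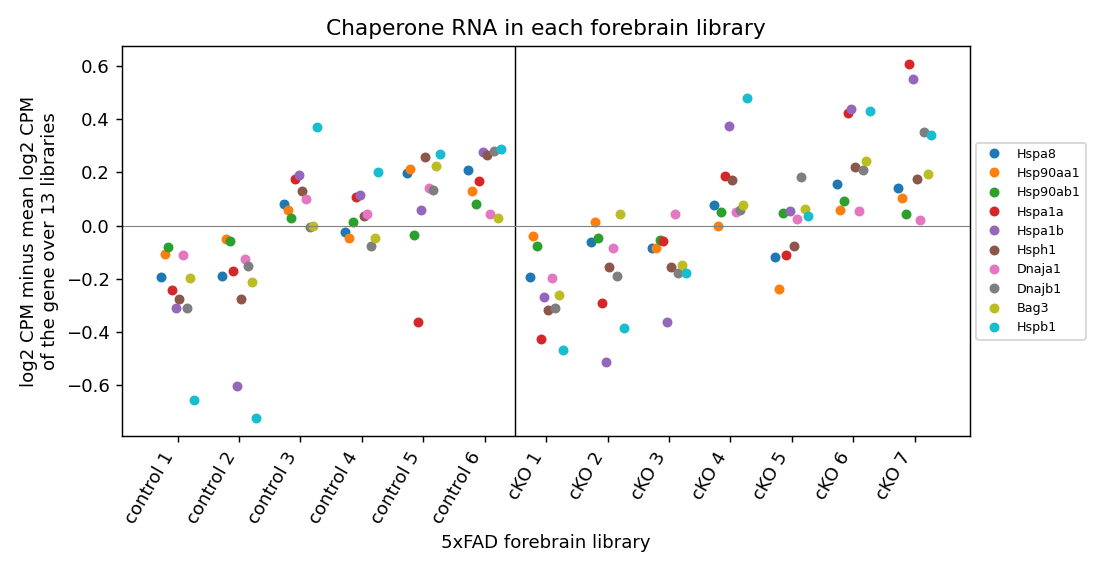
Level of each chaperone gene in each forebrain library, as log2 CPM minus the mean of that gene over the 13 libraries (y axis), with controls left and cKO right of the line and 1 colour per gene. All 10 genes lie below 0 in control libraries 1 and 2 and cKO library 1, and all 10 lie above 0 in control library 6 and cKO libraries 6 and 7.

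As a measure of this, each gene's deviations from its group mean were compared with the mean standardized deviation of the other 9 genes over the 13 libraries. This is a description only, since libraries share their preparation and all 10 genes are scaled by the same total. Hsph1 followed the others most closely (Pearson r = 0.985, Spearman rho = 0.945), then Hspa8 (0.945 and 0.912) and Hspb1 (0.938 and 0.813). The loosest were Hspa1a (0.709 and 0.731) and Hsp90aa1 (0.581 and 0.676). Within the 6 controls r was 0.993 for Hsph1 and 0.369 for Hspa1a, and within the 7 cKO libraries 0.986 and 0.946. Hsp90aa1 had r of 0.808 within controls and 0.389 within cKO. Leaving out the 2 libraries farthest from the median left r at 0.977 for Hsph1, 0.610 for Hspa1a and 0.567 for Hsp90aa1. All 45 pairs of members had a positive r, from 0.299 for Hsp90aa1 with Hsp90ab1 to 0.976 for Hspa8 with Hsph1. Pairs among all genes were not computed for comparison. The mean profile of the 10 genes had r of -0.43 with the total count of the library, 0.03 with the mitochondrial share of counts and 0.14 with the summed microglia markers, and the part of these in the shared pattern was not tested.

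The 5 genes outside the list with profiles most like the members over the 13 libraries were P4ha1 (r = 0.98), which encodes a prolyl hydroxylase subunit, Tra2a (r = 0.97), a splicing regulator, Egr3 (r = 0.97), an immediate early transcription factor, and Enc1 and Klhl3 (both r = 0.96), which encode kelch-domain proteins. None of the 5 was called between genotypes, with edgeR adjusted p from 0.855 for Klhl3 to 0.995 for Tra2a.

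In the sorted microglia, the UMIs of every kept cell were added up for each library and expressed as CPM, and with 1 library per genotype no test was possible. Intervals below are 95% and cover counting error only, not differences between mice or libraries. The gate was checked against markers: the 10 microglia markers stood between 346 (Sall1) and 8961 CPM (C1qa) in the control library and between 371 (Sall1) and 8059 CPM (C1qa) in the cKO library. The summed markers of each other cell type reached at most 76.1 CPM in the control and 69.7 CPM in the cKO library, both for oligodendrocytes. Of 45 such markers, 10 had no UMI in either library, among them Cldn5 (endothelial cells), Cd163 and Lyve1 (border macrophages), Ly6c2 (monocytes), Cd3e (T cells) and Gad1 (neurons), and 4 reached 20 CPM (Pecam1, Cd79b, Mbp and Mag). Cells with at least 2 UMIs of those markers made up 3.51% of control and 21.2% of cKO cells, but 1.79% and 1.85% after each cell was thinned to 1000 UMIs.

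The constitutive chaperones dominated in microglia as in forebrain. Hsp90ab1 stood at 1248 CPM in control and 879 CPM in cKO microglia, 1.42-fold lower in cKO (ratio of cKO to control 0.704, 0.689 to 0.719). Hspa8 stood at 710 and 601 CPM, a ratio of 0.846 (0.823 to 0.870). Hsp90aa1 stood at 289 and 212 CPM, a ratio of 0.734 (0.703 to 0.767). These 3 genes, the main HSP90 and HSP70 proteins of the cytosol, were thus all lower in the cKO library by more than counting error. Among the J-domain genes, Dnajb1 was lower, at 55.0 and 42.6 CPM (ratio 0.774, 0.701 to 0.857), while Dnaja1 stood at 153 and 162 CPM (ratio 1.06, 0.996 to 1.12). The direction of Dnaja1 turned with the cells used, from 0.923 in cells with at least 1000 genes to 1.10 after thinning.

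**Figure D3:**
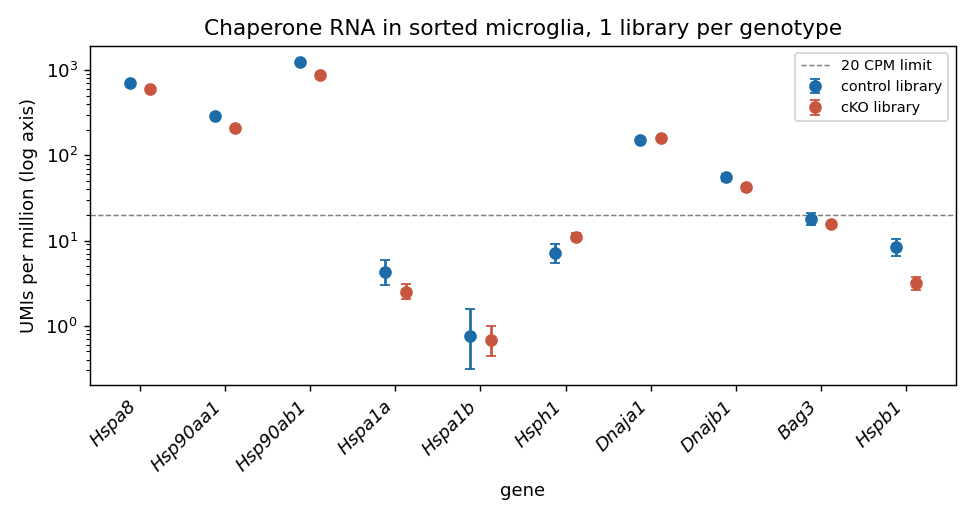
Level of each chaperone gene in sorted microglia (y axis, CPM, log axis) in the control and cKO library, 1 library each, with exact 95% Poisson bars for counting error. Hsp90ab1, Hspa8 and Hsp90aa1 are highest and are lower in the cKO library, and 5 of the 10 genes lie under the dashed limit of 20 CPM.

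These 5 genes, Hsp90ab1, Hspa8, Hsp90aa1, Dnaja1 and Dnajb1, reached 20 CPM in at least 1 library, and 0 of them differed by 1.5-fold or more, where 3.31% of the 6769 genes at this level did (1.43% lower and 1.88% higher). Of the 5, 4 had a ratio below 1, against 38.4% of all genes at this level, and their median log2 ratio was -0.37 against 0.05. Summed over all 10 members, the level was 2494 CPM in the control and 1929 CPM in the cKO library.

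The other 5 members, which include the most inducible genes, were below 20 CPM in both libraries. Bag3 stood at 18.0 and 15.4 CPM (ratio 0.859, 0.722 to 1.03). Hspb1 had 76 control and 127 cKO UMIs, or 8.33 and 3.17 CPM (ratio 0.381, 0.284 to 0.513). Hsph1 had 65 and 442 UMIs, or 7.13 and 11.0 CPM (ratio 1.55, 1.19 to 2.04), and so was higher in cKO. For the HSP70 pair that is most heat-inducible, Hspa1a had 39 and 101 UMIs, or 4.28 and 2.52 CPM (ratio 0.590, 0.404 to 0.877), and Hspa1b had 7 and 27 UMIs, or 0.767 and 0.674 CPM (ratio 0.879, 0.373 to 2.39). No 50-base stretch of the last 500 bases of the longest Hspa1a transcript occurs in that of Hspa1b, so 3′ counting can tell these genes apart.

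Shares of cells with a UMI depended on depth and were therefore compared after thinning, in 5655 control and 8331 cKO cells with at least 1000 UMIs (588 and 543 shallower cells were left out). Without thinning, Hsp90ab1 was seen in 77.2% of control and 85.0% of cKO cells, and after thinning in 67.6% (66.4 to 68.8, Clopper-Pearson) and 53.1% (52.0 to 54.2). Hspa8 went from 59.6% and 79.5% to 49.5% and 41.9%, and Hsp90aa1 from 32.0% and 52.3% to 24.3% and 18.1%. At equal depth these 3 genes were therefore seen in fewer cKO cells, the reverse of the shares without thinning. Dnaja1 went from 18.9% and 45.5% to 13.6% (12.7 to 14.5) and 14.6% (13.8 to 15.4), and Dnajb1 from 7.58% and 16.3% to 5.45% and 4.07%. The other members were seen in few thinned cells: Bag3 in 1.82% and 1.52%, Hsph1 in 0.796% and 1.01%, Hspb1 in 0.601% and 0.228%, Hspa1a in 0.442% and 0.348%, and Hspa1b in 0.0707% and 0.0960%. The same members without thinning were seen in 2.55% and 6.57% (Bag3), 1.01% and 4.51% (Hsph1), 0.785% and 0.834% (Hspb1), 0.625% and 0.856% (Hspa1a), and 0.0961% and 0.248% (Hspa1b). The level given by free RNA was not estimated, and shares this low are not read as expression. Per thinned cell, the 10 members together gave a mean of 2.49 UMIs in control and 1.86 in cKO cells, and 11.0% and 19.2% of cells had none.

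Depth moved with the levels within each library, so cells of like depth were set side by side. Hsp90ab1 stood at 1028 and 572 CPM in cells with 500 to under 1000 UMIs, at 1246 and 487 CPM with 1000 to under 2000 UMIs, and at 1345 and 855 CPM with 2000 to under 4000 UMIs, in control and cKO cells respectively. It was lower in cKO cells in each of these ranges. Hspa8 was also lower in each, at 544 and 331, 714 and 391, and 759 and 550 CPM. Hsp90aa1 stood at 254 and 223, 285 and 195, and 323 and 196 CPM, and Dnaja1 at 152 and 134, 147 and 141, and 185 and 159 CPM, so both were also lower in cKO cells in each range. Deeper cells were nearly all from the cKO library, with 8 control and 4974 cKO cells at 4000 to under 8000 UMIs. In cells of 1000 to 3000 UMIs (5561 control and 1488 cKO), Hsp90ab1 (ratio 0.514) and Hspa8 (ratio 0.640) passed 1.5-fold, but 12.6% of the 7155 genes at 20 CPM or more in these cells were also lower by that much. Hspa1a turned to a ratio of 1.47 on 35 and 16 UMIs, and Dnaja1 to 0.957. Those 1488 cKO cells are the shallow end of that library.

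**Figure D4:**
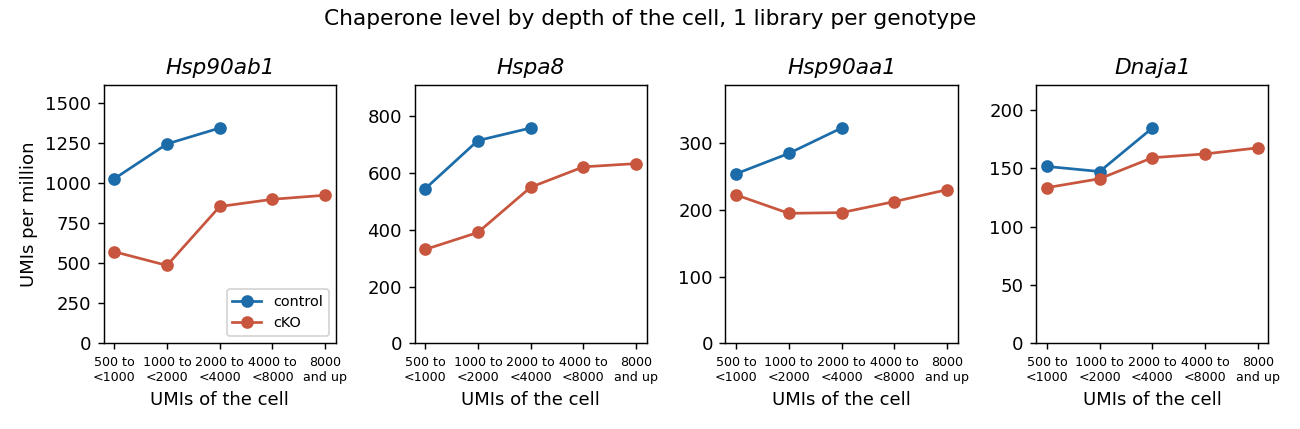
Level of 4 chaperone genes (y axis, CPM of the summed cells) by the UMI count of the cell (x axis), in the control and cKO library, 1 library each. The control is not drawn from 4000 UMIs up, where it held too few cells. Hsp90ab1 and Hspa8 are lower in cKO cells in each range drawn for both libraries, and Dnaja1 lies closer in both libraries.

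Genes that respond to tissue dissociation moved in the same direction. Of 17 immediate early genes at 20 CPM or more, all 17 were below a ratio of 1 and 11 were at least 1.5-fold lower in the cKO library, led by Fos (1621 and 354 CPM), Fosb (403 and 104 CPM), Egr1 (1533 and 447 CPM) and Klf4 (97.8 and 37.3 CPM). Their summed level was 17757 CPM in the control and 9980 CPM in the cKO library, and their part in the result was not tested. In thinned cells with more than 5 UMIs of these genes (5460 control and 6007 cKO), the summed chaperones stood at 2479 and 1836 CPM, a ratio of 0.741. In cells with 3 to 5 such UMIs (160 and 1409 cells), the ratio was 0.721. With 1 to 2 such UMIs (28 and 739 cells) it was 0.608, and with 0 (7 and 176 cells) it was 0.313. The range above 5 has no upper end. Over all thinned cells the median was 17 such UMIs in control and 9 in cKO cells, so that range does not match the libraries for these genes. Within each library, the number of chaperone UMIs per thinned cell had an r of -0.03 (5655 control cells) and -0.04 (8331 cKO cells) with that of immediate early UMIs. With a mean of only 2.49 and 1.86 chaperone UMIs per cell, much of the spread is counting error. These r values therefore cannot decide whether the genes vary together.

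Other parts of the cytosolic folding machinery had medians nearer to 0 in microglia. Hsf1 stood at 32.6 and 34.8 CPM (ratio 1.07, 0.943 to 1.22). Of 14 cytosolic cochaperones at 20 CPM or more, only Ahsa1, which stimulates the HSP90 ATPase, passed 1.5-fold, at 22.4 and 38.7 CPM (ratio 1.73, 1.49 to 2.01), and their median log2 ratio was -0.06. None of the 8 TRiC subunits (median 0.00), 6 other J-domain genes (median -0.04) and 6 mitochondrial chaperones (median 0.08) passed 1.5-fold. ER chaperones lay farther from equal than the cytosolic members: 13 of 14 were at least 1.5-fold lower in the cKO library, with a median log2 ratio of -1.29. They were led by Calr, a lectin chaperone (718 and 181 CPM, ratio 0.252), Sdf2l1, a partner of the ER HSP70 (174 and 47.3 CPM, ratio 0.271), Hspa5, the ER HSP70 itself (932 and 278 CPM, ratio 0.298), and Pdia6, a disulfide isomerase (419 and 144 CPM, ratio 0.344).

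**Figure D5:**
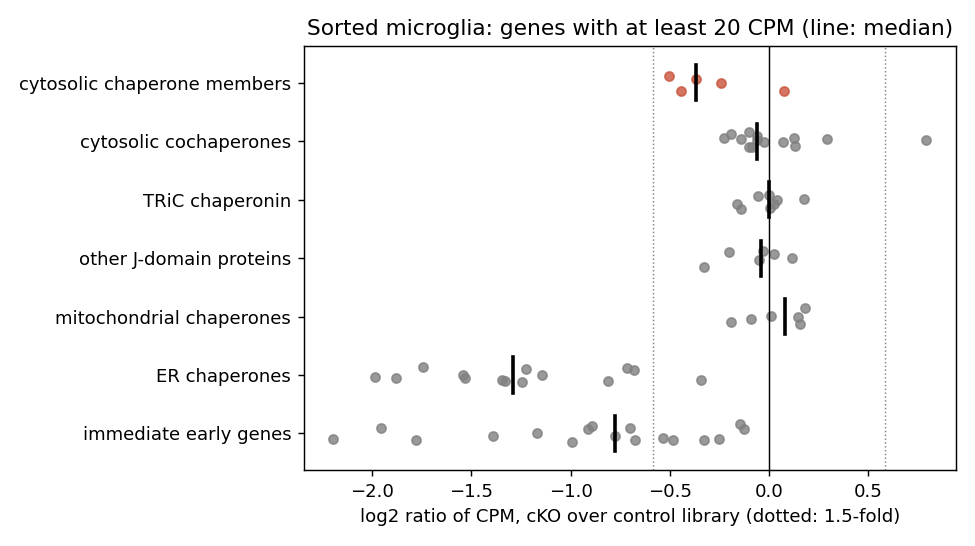
Log2 ratio of CPM, cKO over control microglia library (x axis), for each gene with at least 20 CPM in 1 library, by gene list, with a black line at the median and dotted lines at 1.5-fold. The cytosolic members (median -0.37) lie between the cochaperones (-0.06) and the ER chaperones (-1.29), and all immediate early genes lie below 0.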

How the data were processed

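Bulk values are read counts per Ensembl gene that the authors deposited without normalization. The submitters' processing notes name HISAT2 2.0.5, featureCounts 1.5.0-p3 and mm10, and the labels name poly-A selection and an NEBNext Ultra II kit. Strand setting and annotation release: not given in the sources used here. For microglia the authors deposited UMI counts of each gene in each barcode, from 10x 3′ v3 libraries. The Cell Ranger version was 6.1.0 per the file headers.

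Forebrain counts were tested in R 4.3.3 with edgeR 4.0.16 (filterByExpr, TMM, quasi-likelihood test with robust dispersion, genotype as the only term, two-sided, Benjamini-Hochberg adjustment over all 16956 genes tested, threshold 0.05) and tested again with DESeq2 1.42.0. The procedures were tested on simulated data. Pairs of libraries of 1 group differed by chi-square values of 2.75 to 24.0 per degree of freedom, so no library repeated another. Barcodes with 500 or more genes and a mitochondrial share up to 10% were kept and not clustered, no doublet caller was run, and SciPy 1.17.1 gave the exact 95% intervals. Intervals of log2 changes use the SE and the degrees of freedom of the fit. Thinning drew 1000 UMIs per cell without replacement.

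All 10 members were named. Of each related list, genes past the bulk test or past 1.5-fold at 20 CPM were named, up to 4 by size, and Hsf1 always, and the 5 genes most like the members by Pearson correlation. The members and lists were chosen with earlier results of these data known. Positions are from GENCODE M21 on GRCm38.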

Additional observations from a re-analysis of the deposited data

How the results depend on the processing

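No chaperone gene was called in forebrain under any alternative: RLE or upper quartile factors, no filter on low counts, DESeq2, a replicate block, each library left out in turn, or an offset for GC content and length, which was chosen after seeing the data. The lowest adjusted p of any member over the edgeR fits was 0.649 (Hspa1a without cKO replicate 1). Calls over all genes moved: higher calls numbered 23 without a filter and 23 with DESeq2. With replicate numbers 1 to 6 as a block there were 19 lower and 1 higher calls, and the block turned Dnajb1 to a log2 change of -0.012. Same-numbered libraries had correlations of deviations from -0.24 to 0.16 and 1 of 6 matched its own number best, so over all genes the numbers were not taken to pair the libraries. For the members the block, set against the same 12 libraries without it, lowered the SE of 9 of 10 genes (all but Hsp90aa1; Hspb1 from 0.23 to 0.12, Dnajb1 from 0.10 to 0.055), and their mean profile lay on the same side of 0 in both groups for 4 of 6 numbers. The share of all genes with a lower SE under the block was not counted. The members also share much of their profile, so these 9 genes are not independent and are not read as a trait of the members. A shared litter or batch behind a number is not stated in the labels. Leaving out each library gave 30 to 50 lower calls (lowest at 30 when control 5 was left out, and 31 for cKO 3 or cKO 6) and 3 to 23 higher calls (23 without cKO 1), and 0 to 0 chaperone calls. Small log2 changes crossed 0 in these fits for Hspa8 (-0.069 to 0.013), Hsph1 (-0.10 to 0.0067), Dnaja1 (-0.053 to 0.00076), Dnajb1 (-0.010 to 0.11) and Hspb1 (-0.054 to 0.14). Over all tested genes log2 change had a Spearman correlation of 0.36 with GC content and -0.21 with length, across genes that are not independent. The offset for both turned Hsp90ab1 to -0.0056, Dnaja1 to 0.058 and Hspb1 to -0.030. In microglia the median log2 ratio was -0.53 in cells with at least 1000 genes and -0.56 in cells with 1000 to 3000 UMIs, where 2 members were at least 1.5-fold lower and Hspa1a turned to a ratio of 1.47. The cause was not tested. All deposited barcodes, a 5% mitochondrial limit, thinning, leaving out cells with markers of other types, median-ratio scaling and a limit of 50 CPM left 0 of the members at the CPM limit past 1.5-fold. Members under the limit are not in that count, and some passed 1.5-fold, such as Hspb1 (0.369 under median-ratio scaling). Dnaja1 was at 0.923 with at least 1000 genes and 0.957 with 1000 to 3000 UMIs.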

Other observations

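Chaperones of the ER also went up and down with the cytosolic members across the 13 forebrain libraries, although 0 of the 14 were called between genotypes. The deviations of 12 of the 14 genes had r above 0.5 with the mean profile of the cytosolic members (median 0.80), where 11.4% of all genes tested did (median -0.01). Hspa5, the ER HSP70, had r = 0.94, Pdia4, a disulfide isomerase, 0.92 and Hsp90b1, the ER HSP90, 0.90, whereas Dnajb9, an ER J-domain protein, had r = -0.44. The values describe 13 libraries that share a scaling by total count, and none was tested.

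Cytosolic cochaperones were mixed, with 9 of 18 above 0.5. Chordc1, an HSP90 partner, had r = 0.94, and Bag4, a BAG family protein, had r = -0.56. Among other genes of the folding machinery, Cct4, a TRiC subunit, had r = 0.91, Cryab, a small heat shock protein, 0.91, and Hsf1 0.78. Of 18 immediate early genes, 8 were above 0.5, with Fosb highest at 0.84. These genes were singled out after their values were seen.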
